A study of Mus musculus with 24 samples.

Results

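Interferon-stimulated genes were followed in cells sorted from regenerating mouse muscle: 37 genes were named, and 36 of them had a probe set on the arrays among 23279 genes with a symbol. The members were chosen by gene symbol, as genes known to be induced by interferons. Ifi44 was not matched to a probe set and was not analysed here. The 36 members all passed the filter on low values, which kept 14064 genes lying above their array's median on at least 3 arrays. Mx1 passed through its 3 satellite day 2 arrays alone, so that its difference there was fixed by the filter. Oas3 passed on 4 arrays, of which 1 lay outside that group.

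The tibialis anterior, a shin muscle, was injured with cardiotoxin, a venom toxin that destroys muscle fibres. Muscles were taken 2, 4 and 8 days later and, as the uninjured state, on day 0. Satellite cells (SC), the stem cells of muscle, were sorted as CD45-, Sca1-, CD34+/lo, CD31- and alpha7integrin+, and endothelial cells (EC) as CD45-, Sca1+, CD34+ and CD31+. Each of the 8 cell type and day groups held 3 arrays, 24 in all. No strain, genotype, sex or age was given in the sources used here, and no group of intact muscle injected without toxin was analysed here.

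Interferons are secreted proteins that cells release on sensing foreign or misplaced nucleic acids. Type I interferons bind a receptor made of Ifnar1 and Ifnar2, and the kinases attached to it activate a complex that includes Stat2 and Irf9 and binds the interferon-stimulated response element in promoters. Interferon-gamma, made mainly by T and NK cells, acts through another receptor on an overlapping set of genes. The induced proteins cut, bind or edit viral RNA, tag proteins with the ubiquitin-like Isg15, restrain virus release and feed back on the pathway, and many are held at a basal level in uninfected cells.

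Promoter stretches are shown for 7 members that the results describe and that hold the core of the response element the genes are named for. The 300 bases from 250 upstream to 50 downstream of the start site, from RefSeq on GRCm38.p6, were given for 28 members (32 promoters). The core of the response element, GAAA followed by any 2 bases and a further GAAA, was searched on both strands, overlapping matches included. Capitals mark the matches, in which TTTC stands for GAAA on the opposite strand, and each sequence runs 5′ to 3′ along the gene's strand. Probe sets were keyed by gene identifier. These were 100038882 for Isg15, 58185 for Rsad2, 69550 for Bst2, 246727 for Oas3, 55932 for Gbp3, 15957 for Ifit1 and 15959 for Ifit3.

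Isg15, chr4:156200845-156200926, minus strand: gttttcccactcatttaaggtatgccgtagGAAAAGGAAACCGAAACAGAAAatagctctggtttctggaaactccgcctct
Rsad2, chr12:26456533-26456602, minus strand: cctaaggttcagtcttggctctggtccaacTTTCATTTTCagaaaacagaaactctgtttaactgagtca
Bst2, chr8:71537557-71537632, minus strand: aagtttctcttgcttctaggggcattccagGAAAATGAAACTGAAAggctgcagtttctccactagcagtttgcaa
Oas3, chr5:120777695-120777764, minus strand: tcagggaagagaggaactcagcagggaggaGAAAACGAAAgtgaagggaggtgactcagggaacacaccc
Gbp3, chr3:142559969-142560043, plus strand: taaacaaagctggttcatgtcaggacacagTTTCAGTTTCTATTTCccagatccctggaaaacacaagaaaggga
Ifit1, chr19:34640755-34640843, plus strand: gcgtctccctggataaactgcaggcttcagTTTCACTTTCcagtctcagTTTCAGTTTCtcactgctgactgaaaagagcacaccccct
Ifit3, chr19:34583343-34583446, plus strand: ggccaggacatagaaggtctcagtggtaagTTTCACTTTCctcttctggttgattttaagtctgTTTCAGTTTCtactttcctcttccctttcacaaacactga

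The match was present in 13 of the 32 member promoters (40.6%), against 3.44% of all 32851 promoters of that length. Of the 28 members 15 had no match, among them Irf7, Oasl2, Oasl1, Trim25, Cmpk2, Irf9 and Ifit2, of which no sequence is shown. Isg15 held 3 overlapping matches upstream of its start site, Rsad2 held 1, and Ifit1 and Ifit3 held 2 each. A match describes the letters of these windows and no binding was measured.

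Values are log2 intensities after RMA, a method that corrects background, normalizes between arrays and summarises probes into 1 value a gene. Array medians lay between 4.11 and 4.4, and a gene near its array's median was near background. A gene was called where limma's test over all 14064 genes gave an adjusted p (Benjamini-Hochberg) under 0.05 and a log2 difference of at least 1. A ± gives the standard error of a difference between groups of 3 arrays. Replicates were labelled biological, but nothing said whether they came from separate mice or pools. Groups were taken from the sample titles: the separate cell type field differed from the title in 12 of 24 samples and the time field in 18. The 10 endothelial markers separated the titled cell types, with mean log2 values of 9.64 or more on each EC array and 8.79 or less on each SC array.

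The SC day 2 arrays went against their label in part. The 8 satellite cell markers, which include Pax7, Myf5 and Itga7, averaged 4.92, 5.14 and 4.71 in SC on day 2, against 8.86, 8.59 and 8.52 in SC on day 0, and all 8 fell. On the EC arrays these markers averaged 4.21 to 5.10, and on day 2 Itga7 and Myf5 were higher in SC than in EC while the other 6 were not called. The 14 macrophage and monocyte markers all rose, to means of 10.32, 8.65 and 10.21 in SC on day 2, against 4.37, 3.68 and 3.88 in SC on day 0. Ptprc, which encodes the CD45 that the sort selected against, measured 9.82, 8.01 and 9.67 in SC on day 2 and 3.13, 2.97 and 2.81 in SC on day 0. Neutrophil markers also rose, 7 of 7 tested. Their list averaged 8.15 in SC on day 2 and 3.18 to 4.99 in the other groups. How far they passed the filter through the SC day 2 arrays was not examined, so this count may be nearly fixed. Endothelial markers rose in SC too, 5 of 10 on day 2, 4 on day 4 and 5 on day 8, among them Cdh5, Emcn, Kdr and Pecam1 on each day. The 7 pericyte and smooth muscle markers averaged 6.64, 8.29 and 6.58 in SC on day 2, against 9.68, 10.47 and 10.41 in SC on day 0, and all 7 fell. In such sorted bulk samples, fewer cells of a type and less RNA per cell cannot be told apart.

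Several arrays stood apart from their groups. Replicate 2 of SC on day 2 had 685 genes at least 1 log2 unit above and 952 as far below both others of its group. Replicate 1 of SC on day 0 had 259 above and 677 below, and replicate 1 of SC on day 4 had 313 above and 567 below. That SC day 2 array had lower macrophage markers than its group (8.65) and endothelial markers at 8.79, against 6.85 and 7.11 on the other SC arrays of that day. On it 27 of 36 members lay below both others, a share not counted over all genes. Its median gap from the mean of those others was -0.50 for the members and 0.02 for all genes tested. Replicate 3 of EC on day 0 differed less over all genes, with 285 above and 233 below, but carried interferon-stimulated genes far above its group and is described below. Where leaving out this array or replicate 2 of SC on day 2 changed the members called in a comparison that uses it, the change is given with the result.

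**Figure D1:**
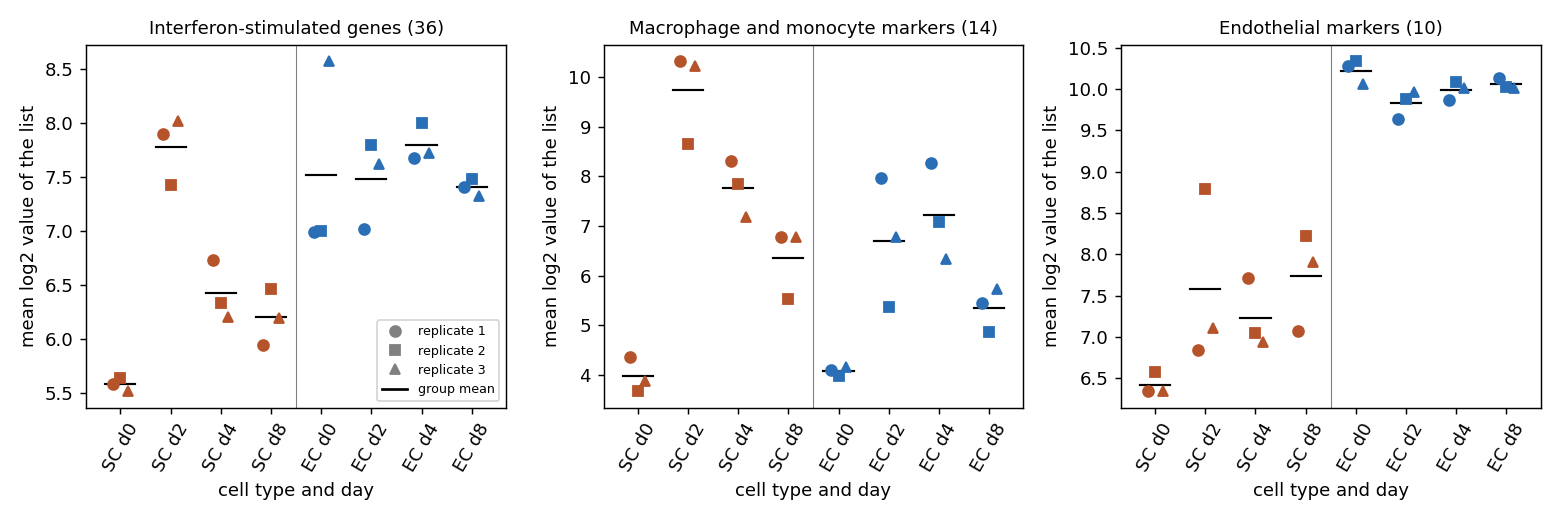
Mean log2 value of the 36 interferon-stimulated genes (left), 14 macrophage and monocyte markers (middle) and 10 endothelial markers (right) on each array, by cell type and day; points are arrays, with a symbol for each replicate, and bars are group means. The interferon-stimulated genes peaked on day 2 in SC, and 1 EC array of day 0 lay at 8.57, above every other array, with macrophage markers at 4.16.

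On the arrays titled satellite cells, 30 of the 36 members rose on day 2 relative to day 0 and none fell, where 10.9% of all genes tested rose. Their median log2 difference was 2.32, beside -0.03 for all genes. In 32 of the 36 members, all 3 day 2 arrays lay above all 3 day 0 arrays, as they did in 17.9% of all genes tested. Without Mx1 and Oas3, 28 of 34 rose. Without replicate 2 of day 2, 29 rose, Herc6 no longer being called, and the median was 2.47. The macrophage, neutrophil and endothelial markers rose and the satellite cell and pericyte markers fell on the same arrays, as given above, and their part in these differences was not tested.

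Among the genes of nucleic acid sensing, 5 of 5 rose. Zbp1, a sensor of Z-form nucleic acids that can trigger cell death, measured 9.42, 8.18 and 9.55 in SC on day 2, against 4.85, 4.19 and 4.56 in SC on day 0. The groups were far apart, with replicate 2 the lowest of day 2, and the log2 difference of 4.52 ± 0.59 (adjusted p = 5.79e-06) was the largest among the members. Dhx58, the RIG-I-like receptor LGP2, rose by 2.71 ± 0.52 and Eif2ak2, the RNA-activated kinase PKR, by 2.43 ± 0.29. The day 0 means of Zbp1, Dhx58 and Eif2ak2 were 4.53, 3.89 and 4.47, at or near background, so no fold is given. Trim25, a ubiquitin ligase of the RIG-I pathway, and Ifih1, the RNA sensor MDA5, rose by 1.56 and 1.27 on the log2 scale.

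The transcription factors were uneven, with 3 of 4 called. Irf7, which drives transcription of type I interferon genes, measured 8.94, 8.51 and 9.67 in SC on day 2, against 4.99, 4.76 and 4.70 in SC on day 0. The 3 uninjured arrays were within 1 log2 unit of their medians and the 3 day 2 arrays were all high, with a log2 difference of 4.22 ± 0.52 (adjusted p = 3.14e-06). Genes of the complex that binds the response element rose less: Stat2 by 1.65 ± 0.47, a 3.13-fold difference, and Irf9 by 1.10 ± 0.30, a 2.14-fold difference. Irf1, an early factor of the interferon-gamma response, measured 7.05, 7.03 and 6.66 in SC on day 2 and 7.86, 7.07 and 6.91 in SC on day 0. Its groups overlapped, and the log2 difference of -0.36 ± 0.30 (adjusted p = 0.411) was not called.

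The OAS family includes the synthetases of the oligoadenylates that activate RNase L, which degrades RNA, and 5 of its 5 members rose by 2.80 to 3.30 on the log2 scale. Oasl2 measured 8.62, 7.85 and 8.46 in SC on day 2, against 5.49, 4.72 and 4.80 in SC on day 0. Oas2 measured 8.06, 6.95 and 8.09 in SC on day 2, against 5.16, 4.77 and 4.25 in SC on day 0. In both genes the groups did not overlap and replicate 2 was the lowest of day 2. The log2 differences were 3.30 ± 0.45 (adjusted p = 1.02e-05) and 2.97 ± 0.56 (adjusted p = 0.000382). Oas3 measured 7.37, 5.32 and 7.63 in SC on day 2, against 3.97, 3.67 and 3.95 in SC on day 0. Oas3 passed the filter on 4 arrays, of which 1 lay outside SC on day 2, so its place in the family count was nearly fixed. Its uninjured level was at background. The day 0 means of Oas1a (3.82) and Oasl1 (3.99) were there too, and that of Oas2 (4.73) was near it.

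Of the GTPases, Mx1, a restriction factor of influenza virus in the mouse, measured 6.85, 4.73 and 7.32 in SC on day 2, against 2.95, 3.02 and 3.02 in SC on day 0. It lay below the array median on the other 21 arrays, and the fitted difference of 3.30 ± 0.46 is no measure of fold. Mx2, its neighbour in the family, rose by 2.26 ± 0.61 (adjusted p = 0.00737) from a mean at background (3.90). Gbp3, a guanylate-binding protein, rose by 2.68 ± 0.54 (adjusted p = 0.000652). Gbp2, of the same family, measured 6.57, 8.39 and 7.05 in SC on day 2 and 6.73, 6.16 and 6.42 in SC on day 0 and was not called (adjusted p = 0.289). Replicate 2 was the highest of the 3 for Gbp2, whereas it was the lowest of the 3 for Mx1, Oas3 and Zbp1.

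Isg15, the ubiquitin-like tag, measured 7.51, 6.55 and 7.58 in SC on day 2, against 4.21, 3.94 and 4.64 in SC on day 0. Usp18, the protease that removes the tag and damps receptor signalling, measured 8.20, 7.90 and 8.09 in SC on day 2, against 4.26, 5.36 and 5.32 in SC on day 0. Neither gene's groups overlapped, and the log2 differences were 2.95 ± 0.41 (adjusted p = 1.25e-05) and 3.08 ± 0.44 (adjusted p = 1.74e-05). The enzymes of ubiquitin and ADP-ribose were called in 3 of 4: Parp14, a mono-ADP-ribosyl transferase, by 2.38 ± 0.38 (5.21-fold), Dtx3l, a ubiquitin ligase, by 1.87 ± 0.37 and Herc6, the mouse ligase of Isg15, by 1.29 ± 0.48. Without replicate 2 of day 2, Herc6 was not called (1.17, adjusted p = 0.116). Parp9, the partner of Dtx3l, had a log2 difference of 0.68 ± 0.34 (adjusted p = 0.143) and was not called.

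Rsad2, the radical SAM enzyme viperin, measured 8.58, 8.12 and 8.66 in SC on day 2, against 4.96, 4.16 and 5.11 in SC on day 0. Rtp4, a chaperone of membrane receptors, measured 9.03, 8.44 and 9.10 in SC on day 2, against 4.79, 5.74 and 5.37 in SC on day 0. All day 2 arrays of both genes lay at least 2 log2 units above the highest day 0 array, and the differences were 3.71 ± 0.40 (adjusted p = 5.56e-07) and 3.56 ± 0.38 (adjusted p = 5.56e-07). Cmpk2, a mitochondrial nucleotide kinase whose gene adjoins Rsad2, rose by 1.65 ± 0.40, and Xaf1, Samd9l and Ifi35 rose by 1.81, 1.98 and 1.56. Bst2, or tetherin, which holds budding virus at the cell surface, rose 6.72-fold (log2 2.75 ± 0.34) and Lgals3bp, a secreted galectin-binding glycoprotein, 5.95-fold (log2 2.57 ± 0.38).

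The members that did not pass the call in SC on day 2 included 2 of the 3 IFIT genes, whose proteins bind viral RNA and block its translation. Ifit1 rose 4.75-fold, a log2 difference of 2.25 ± 0.60 (adjusted p = 0.00702). Ifit2 had a log2 difference of 1.13 ± 0.57 (adjusted p = 0.148) and Ifit3 one of 0.17 ± 0.29 (adjusted p = 0.725). Ifit3 measured 7.71, 8.04 and 7.61 in SC on day 2 and 7.92, 7.67 and 7.26 in SC on day 0, and the groups overlapped. Probe sets of closely related genes, such as those of the IFIT, OAS1 and GBP families, may share probes, which could not be examined in a table of summarised values. Ifitm3, which blocks virus entry at endosomes, was high on every array (11.39, 11.68 and 11.43 in SC on day 2, against 10.94, 10.87 and 10.75 in SC on day 0). Its difference of 0.64 ± 0.17 (adjusted p = 0.00621) was past the p threshold and under the size threshold. Ifit3, Ifitm3 and Irf1 were called in none of the 17 comparisons made.

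On day 4, 9 members remained higher in satellite cells than on day 0, where 6.53% of all genes tested rose, and on day 8 it was 7, where 4.38% rose. The median log2 differences were 0.78 and 0.60, beside 0.01 and -0.01 for all genes. The 9 genes of day 4 were Bst2, Eif2ak2, Irf7, Isg15, Oasl2, Rsad2, Rtp4, Xaf1 and Zbp1, all of them among the 30 of day 2. Bst2, Eif2ak2, Rsad2, Rtp4 and Xaf1 were called on all 3 days, and Mx2 and Samd9l were called on days 2 and 8. Macrophage markers were also still above day 0, at means of 8.30, 7.84 and 7.17 on day 4 and 6.79, 5.52 and 6.78 on day 8, with 13 and 7 of 14 called. Endothelial markers averaged 7.72, 7.05 and 6.94 on day 4 and 7.07, 8.22 and 7.90 on day 8, against 6.35, 6.58 and 6.35 on day 0. The part of either list was not tested.

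Irf7 measured 8.15, 6.90 and 7.15 on day 4 and 6.06, 6.80 and 6.61 on day 8 in SC, with every array above the day 0 arrays given above. Its log2 difference from day 0 was 2.58 ± 0.52 (adjusted p = 0.00139) on day 4 and 1.67 ± 0.52 (adjusted p = 0.0502) on day 8, which was not called. Zbp1 measured 7.49, 7.05 and 6.91 on day 4 and 5.69, 5.50 and 5.39 on day 8. Its difference was 2.62 ± 0.59 (adjusted p = 0.00325) on day 4 and 0.99 ± 0.59 (adjusted p = 0.342) on day 8.

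Rsad2, Rtp4 and Eif2ak2 were among the members called on all 3 days. Rsad2 measured 6.54, 6.42 and 7.55 on day 4 and 6.05, 5.95 and 6.63 on day 8 in SC, differences of 2.09 ± 0.40 (adjusted p = 0.000842) and 1.47 ± 0.40 (adjusted p = 0.0229) from day 0. Rtp4 measured 7.68, 6.83 and 6.62 on day 4 and 7.11, 7.59 and 6.57 on day 8, differences of 1.74 ± 0.38 (adjusted p = 0.00281) and 1.79 ± 0.38 (adjusted p = 0.00434). Eif2ak2 measured 5.71, 5.31 and 5.88 on day 4 and 5.80, 5.75 and 6.31 on day 8, against 4.36, 4.70 and 4.35 on day 0, and its day 8 difference was 1.48 ± 0.29 (adjusted p = 0.00223). In each of these genes every later array lay above the day 0 arrays. Mx2 measured 6.15, 6.43 and 5.26 on day 8, against 3.61, 3.91 and 4.18 on day 0, a difference of 2.05 ± 0.61 (adjusted p = 0.0372). Its groups did not overlap either.

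Between day 2 and day 4, 21 members fell on the arrays titled satellite cells and none rose (median log2 difference -1.47; 5.76% of all genes tested fell). Without Mx1 and Oas3, whose difference from the day 2 arrays was fixed or nearly fixed by the filter, 19 of 34 fell, and without replicate 2 of day 2 it was 24 of 36. Between the same days 6 of 14 macrophage and 7 of 7 neutrophil markers fell and 6 of 8 satellite cell markers rose, and their part was not tested. The filter limits the neutrophil count here as on day 2. Apart from Mx1 and Oas3, the largest falls were in Usp18 (-2.47), Oas2 (-2.36) and Oasl1 (-2.32). Usp18 was 5.56-fold lower on day 4 (adjusted p = 0.000508) and Oas2 5.12-fold lower (adjusted p = 0.00654). Gbp2 and Irf1 had positive differences of 0.17 and 0.55, neither called. The count of 21 was 13 without replicate 1 of SC on day 2, 12 without replicate 3 of SC on day 2 and 12 without replicate 3 of SC on day 4. Between day 4 and day 8 limma called no member, where 1.68% of all genes were called, and at an unadjusted p under 0.05 1 was lower, Zbp1 at -1.62. The count for day 8 against day 0 was 3 without replicate 3 of SC on day 0, and likewise 3 without replicate 2 or replicate 3 of SC on day 8.

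**Figure D2:**
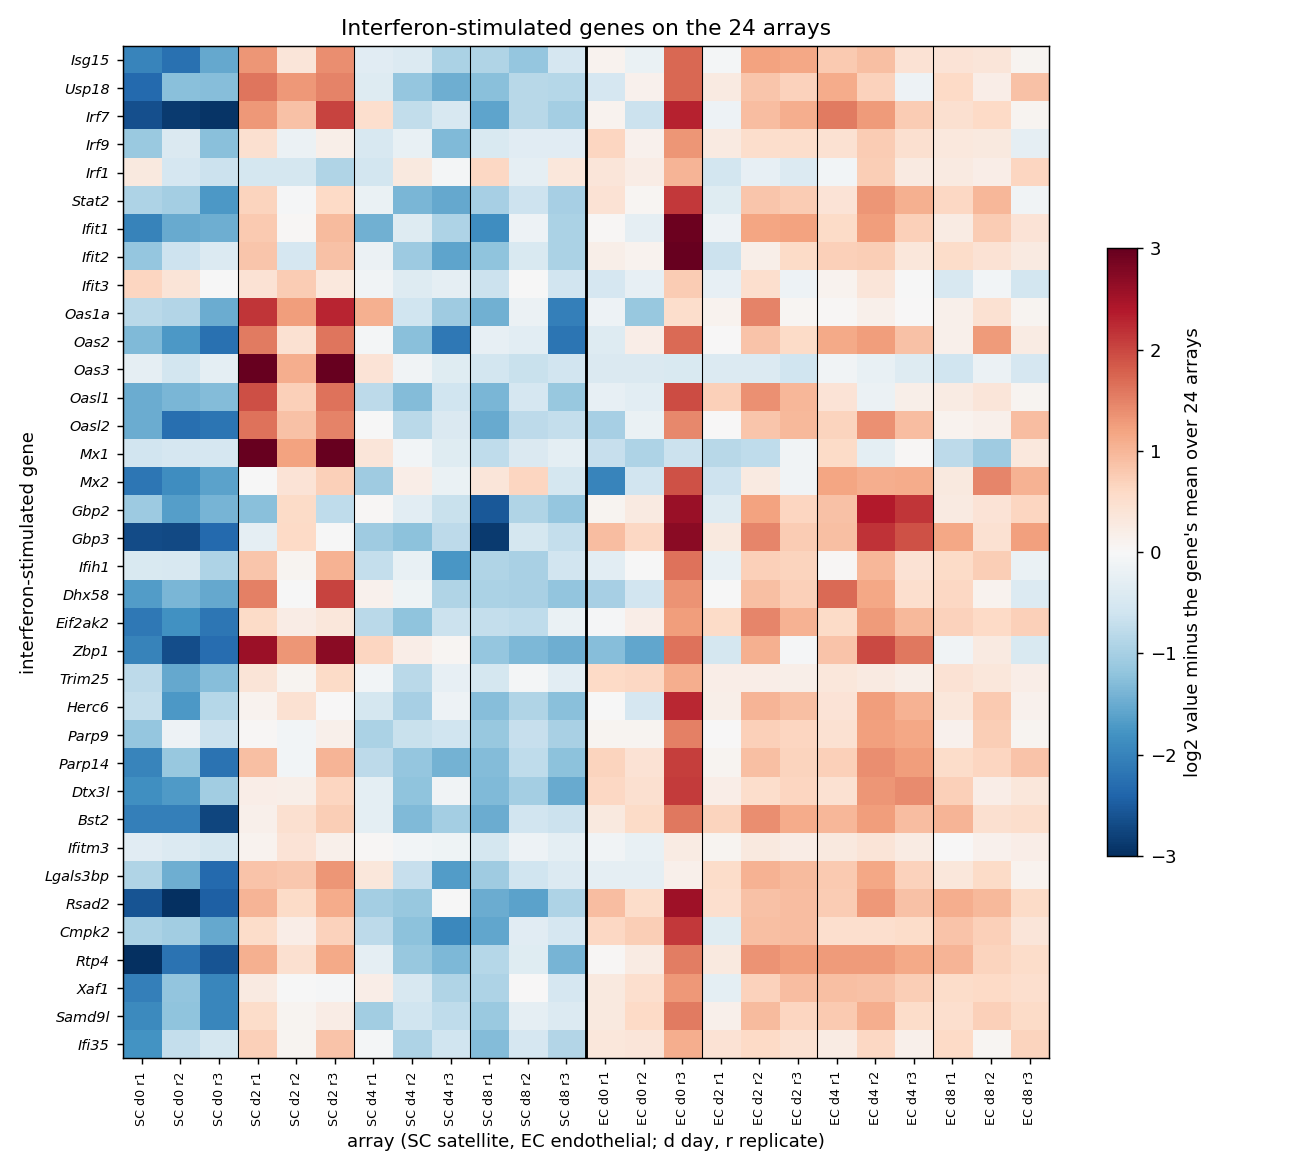
Log2 value of each of the 36 members on each of the 24 arrays minus that gene's mean over the arrays (colours saturate at 3 units either way); SC arrays are left of the thick line and EC arrays right of it, each by day and replicate. Replicate 3 of EC on day 0 is the darkest column on the EC side, and Oas3 and Mx1 stand out on the SC day 2 arrays alone.

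In endothelial cells the day 0 arrays disagreed. The mean over the 36 members was 8.57 on replicate 3 and 6.99 and 6.99 on the other arrays of day 0, against a range of 7.01 to 8.00 over the 9 arrays of days 2, 4 and 8. Replicate 3 lay above both other day 0 arrays in 35 of 36 members and above all 9 later arrays in 28 of 36, shares not counted over all genes. Its median gap over the mean of the other day 0 arrays was 1.54 for the members and -0.04 for all genes tested. At least 1 log2 unit above both others were 25 of 36 members, beside 285 of 14064 genes tested (2.03%). The 285 held 35 further genes of the interferon lists described below and 225 genes of neither. The time field of this sample read day 2, as it did for 3 of the 6 samples titled day 0, and the number in its array name differed from that of the SC array of the same day and replicate, whereas every other such pair shared one.

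Ifit1 measured 10.02 on that array, against 7.11 and 6.80 on the other EC arrays of day 0. Ifit2 measured 9.75, against 6.88 and 6.81. Mx2 measured 7.70, against 3.81 and 5.20. Those genes lay on replicate 3 above each of the 9 later EC arrays. Zbp1 (8.49, against 5.57 and 5.28) and Dhx58 (6.76, against 4.42 and 4.84) were high too, but inside the later range. Lgals3bp, Ifitm3, Mx1 and Oas3 had the smallest gaps. The macrophage markers averaged 4.16 on replicate 3 and 4.11 and 3.98 on the others, and Ptprc measured 2.90 on replicate 3 and 2.84 and 2.78 on the others. Of the 14 markers Cd68, a lysosomal protein, was the one with the widest gap, at 7.38 on replicate 3 and 4.92 and 6.24 on the others.

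**Figure D3:**
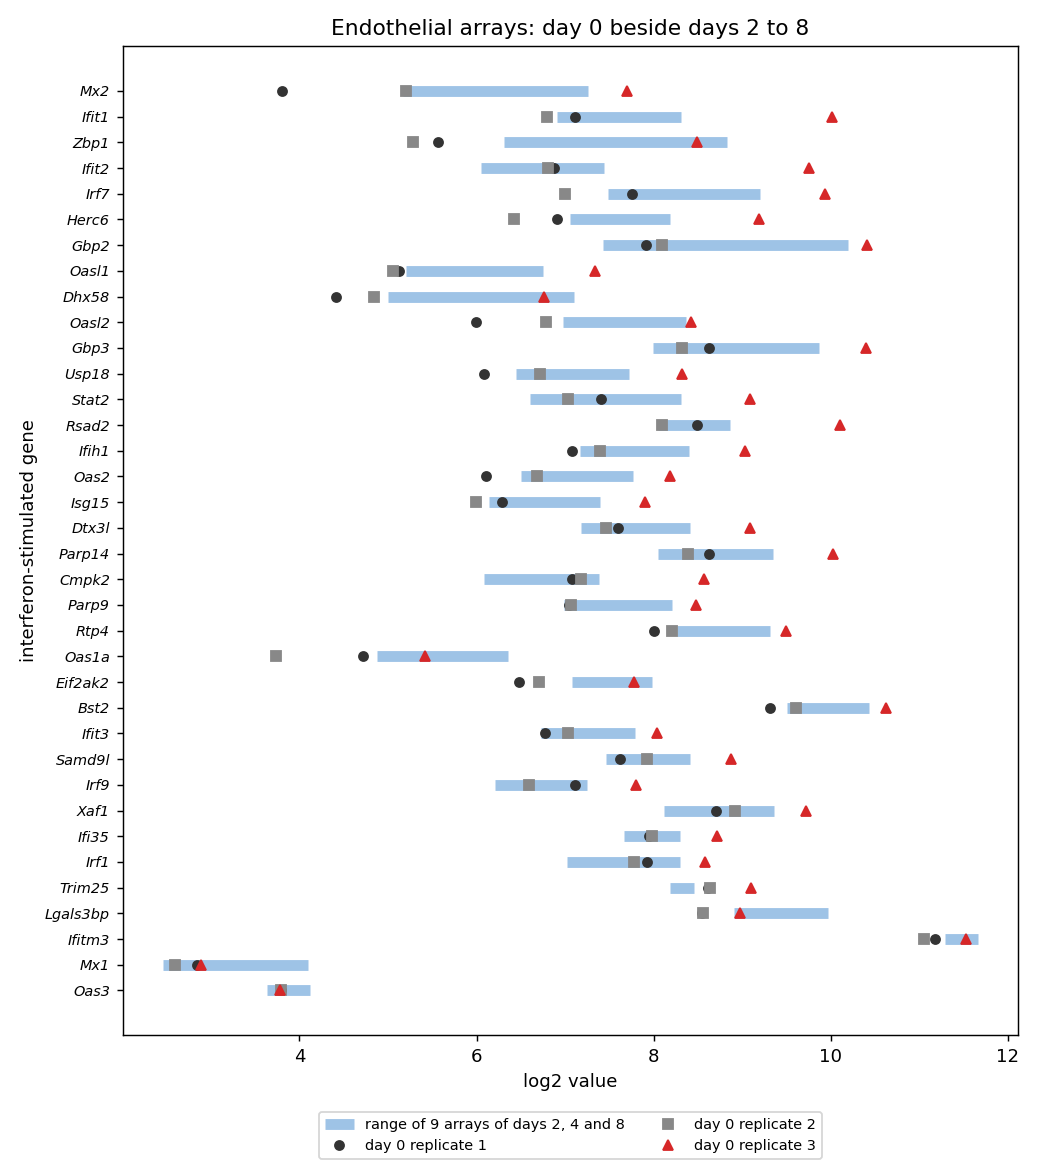
Log2 value of each member on the 3 EC arrays of day 0 (points) over the range of the 9 EC arrays of days 2, 4 and 8 (bars); genes run down the page by how far replicate 3 lies above the mean of the other day 0 arrays. Replicate 3 (red) is right of the bar in 28 of 36 genes.

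With all 3 day 0 arrays, limma called no member in endothelial cells on day 2, 4 or 8 relative to day 0, where 6.73%, 5.33% and 2.05% of all genes were called. At an unadjusted p under 0.05, 1 member was higher (Lgals3bp) and 2 were lower (Irf1 and Trim25) on day 2, 4 were higher (Zbp1, Mx2, Dhx58 and Lgals3bp) and 1 was lower (Trim25) on day 4, and none was either on day 8. The median log2 differences were -0.03, 0.18 and -0.16. Standard errors of single members ran from 0.17 to 0.61, so that differences near 1 were not detectable for the noisier members. No member was called between days 2 and 4 or between days 4 and 8 in endothelial cells, where 0.37% and 0.121% of all genes were called. At an unadjusted p under 0.05, 4 members were higher in the first step (Zbp1, Gbp2, Mx2 and Irf1) and 2 lower in the second (Zbp1 and Gbp2).

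Without replicate 3 of day 0, 2 members rose on day 2 (Zbp1 by 1.59 ± 0.43 and Oasl1 by 1.31 ± 0.32), 5 on day 4 and 1 on day 8, where 2.57%, 2.47% and 0.761% of all genes rose. The medians were then 0.39, 0.71 and 0.28, positive on each day, with 33 of 36 members above 0 on day 4, a share not counted over all genes. Replicate 3 lay above both other day 0 arrays in 35 of 36 members, so leaving it out raises their differences by construction. The upward shift of these medians was thus fixed by the choice of array. The 5 of day 4 were Zbp1, Mx2, Dhx58, Oasl2 and Irf7. Zbp1 measured 7.72, 8.83 and 8.43 in EC on day 4, against 5.57 and 5.28 on the day 0 arrays kept, a difference of 2.90 ± 0.43 (adjusted p = 0.000349). With all 3 day 0 arrays it was 1.88 ± 0.59 (adjusted p = 0.0584). Mx2 measured 6.96, 6.87 and 6.90 on day 4 and 6.07, 7.26 and 6.83 on day 8, differences of 2.41 ± 0.44 (adjusted p = 0.0023) and 2.22 ± 0.44 (adjusted p = 0.0111) without the array. Dhx58, Oasl2 and Irf7 rose by 1.90 ± 0.47, 1.58 ± 0.39 and 1.46 ± 0.42 on day 4. Macrophage markers in EC averaged 7.97, 5.37 and 6.78 on day 2 and 8.27, 7.07 and 6.33 on day 4, with 7 and 10 of 14 called, and their part was not tested. Within day 2, the array with the highest macrophage mean, replicate 1, had the lowest mean over the members (7.01, against 7.79 and 7.62). It lay below both others in 33 of 36, a share not counted over all genes. Its median gap from the mean of those others was -0.69 for the members and 0.0025 for all genes tested.

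Uninjured satellite cells held these genes far below uninjured endothelial cells. On day 0, 28 of 36 members were lower in SC than in EC and none was higher (median log2 difference -2.02; 9.43% of all genes tested were lower). Without replicate 3 of EC it was 22, at a median of -1.40 (9.12% of all genes lower), and the 6 members lost were Dhx58, Gbp2, Herc6, Ifit2, Parp9 and Zbp1. SC arrays of day 0 held the lowest group mean for 25 of 36 members. Macrophage markers were near background in both, at 4.37, 3.68 and 3.88 in SC and 4.11, 3.98 and 4.16 in EC. Pericyte and smooth muscle markers averaged 9.68, 10.47 and 10.41 in SC and 8.06, 7.42 and 6.98 in EC, with 6 of 7 higher in SC, and their part was not tested.

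Rsad2 showed the largest gap on day 0, with 4.96, 4.16 and 5.11 in SC, against 8.49, 8.10 and 10.10 in EC. Its difference was -4.15 ± 0.40 (adjusted p = 9.86e-08), and -3.55 ± 0.34 without replicate 3 of EC. Gbp3 measured 5.01, 4.97 and 5.37 in SC, against 8.63, 8.32 and 10.40 in EC. Its difference was -4.00 ± 0.54 (adjusted p = 7.45e-06), and -3.36 ± 0.52 without that array. Both genes were near background in SC and well above it on each EC array. Irf7 measured 4.99, 4.76 and 4.70 in SC, against 7.75, 7.00 and 9.93 in EC, and Rtp4 4.79, 5.74 and 5.37 in SC, against 8.00, 8.21 and 9.50 in EC, differences of -3.41 ± 0.52 and -3.27 ± 0.38. Bst2 measured 6.97, 6.97 and 6.29 in SC, against 9.32, 9.61 and 10.62 in EC, and was 8.59-fold lower in SC (adjusted p = 5.13e-07). Parp14 and Dtx3l were 7.14-fold and 6.03-fold lower in SC. Ifit3, Mx1 and Oas3 had small positive differences of 0.33, 0.23 and 0.07, none called.

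On day 2 the median difference was near 0. Only 3 members were called between the cell types, all higher in SC (5.82% of all genes tested were higher), and the median was 0.09. Zbp1 measured 9.42, 8.18 and 9.55 in SC, against 6.31, 7.92 and 6.81 in EC, and was 4.1-fold higher, a log2 difference of 2.03 ± 0.59 (adjusted p = 0.0204). Mx1 measured 6.85, 4.73 and 7.32 in SC, against 2.70, 2.77 and 3.41 in EC, and Oas3 7.37, 5.32 and 7.63 in SC, against 3.81, 3.83 and 3.64 in EC. The EC values were at or below background on each array, and as Mx1 passed the filter through the SC day 2 arrays alone and Oas3 through them and 1 other, these differences were fixed or nearly so. Without both genes 1 of 34 was called, Zbp1. Macrophage markers averaged 10.32, 8.65 and 10.21 in SC and 7.97, 5.37 and 6.78 in EC, and their part was not tested.

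By day 4 the members were again lower in SC, in 22 of 36 (median -1.47; 7.73% of all genes lower), and on day 8 in 18 of 36 (median -1.27; 6.88% lower), with none higher. Gbp3 led on both days. It measured 6.62, 6.45 and 6.90 in SC, against 8.60, 9.87 and 9.59 in EC on day 4, a 6.47-fold difference (adjusted p = 0.000971), and 4.83, 7.17 and 6.97 in SC, against 8.85, 8.14 and 8.92 in EC on day 8, a 4.99-fold difference (adjusted p = 0.00356). Parp14 was 4.7-fold lower in SC on day 4 and 3.43-fold lower on day 8, Oas2 4.73-fold lower on day 4 and Rsad2 4.65-fold lower on day 8. The count of day 4 was 12 without replicate 3 of SC. The count of day 8 was 9 without replicate 1 of SC and 11 without replicate 2 of EC.

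**Figure D4:**
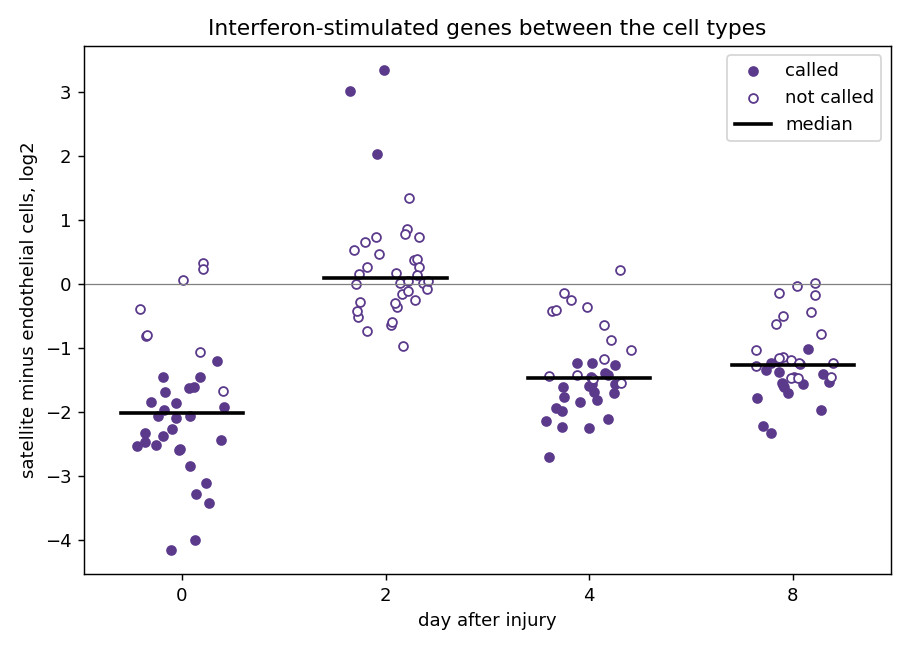
Satellite minus endothelial log2 difference of each of the 36 members on days 0, 2, 4 and 8, with the median as a bar; filled points passed the call. The medians are -2.02, 0.09, -1.47 and -1.27, and the 3 filled points above 0 on day 2 are Mx1, Oas3 and Zbp1.

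Whether the arrays titled SC and EC changed unequally after injury was tested as the SC change minus the EC change from day 0. Satellite cell markers averaged 4.93 in SC on day 2 and 8.66 on day 0. Macrophage markers averaged 9.73 and 3.98 there, and 6.70 and 4.08 in EC. A change within cells and a change of cell mixture cannot be told apart in this contrast. On day 2, 23 of 36 members were called, all with the more positive change in SC (median 2.22; 6.44% of all genes tested were called that way). The largest were Rsad2 at 4.29 ± 0.57 (adjusted p = 4.40e-05), Irf7 at 4.20 ± 0.74 (adjusted p = 0.000825) and Zbp1 at 3.95 ± 0.83 (adjusted p = 0.00351). Without replicate 3 of EC on day 0, 19 of the 23 were still called and no others, where 5.16% of all genes were called that way, and those lost were Ifi35, Irf9, Oas2 and Stat2. Without Mx1 and Oas3 21 of 34 were called, and without replicate 2 of SC on day 2 it was 28 of 36. Rsad2 was at 3.68 ± 0.46 and Trim25 at 1.98 ± 0.33 without replicate 3 of EC on day 0. With that array Trim25 was at 2.14 ± 0.32. On day 4 the called members were Rsad2 at 2.45 ± 0.57 (adjusted p = 0.0137) and Trim25 at 1.32 ± 0.32 (adjusted p = 0.018), where 2% of all genes were called that way, and on day 8 Trim25 alone at 1.35 ± 0.32 (adjusted p = 0.0268), where 1.39% were. Without replicate 3 of EC on day 0, Trim25 was not called on day 4 (adjusted p = 0.0553) or on day 8 (adjusted p = 0.0758), and with the replicate number as a block it was called on neither of these days. The Trim25 differences from day 0 had opposite signs in the cell types on day 8, 0.90 ± 0.22 in SC and -0.44 ± 0.22 in EC, neither called by itself. It measured 7.50, 7.96 and 7.70 in SC on day 8, against 7.22, 6.48 and 6.74 in SC on day 0, and 8.46, 8.35 and 8.22 in EC on day 8, against 8.61, 8.63 and 9.10 in EC on day 0.

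Other genes of the pathway came from lists chosen by function. Interferon ligands had probe sets for 17 of 21 listed genes, of which 8 passed the filter, and limma called none in any comparison with day 0. At an unadjusted p under 0.05, 2 were lower in SC on day 2, Ifna14 at -0.85 and Ifnl2 at -0.72, and none was higher. Ifnb1, the type I interferon made by most cells, measured 1.87, 2.10 and 2.04 in SC on day 2 and 2.01, 2.01 and 1.96 in SC on day 0, and Ifng measured 2.81, 2.87 and 2.90 in SC on day 2 and 2.92, 2.74 and 2.80 in SC on day 0, both far below the array medians. Ifna4 measured 9.13, 6.12 and 5.74 on the SC arrays of day 4, so that 1 array stood alone. Markers of plasmacytoid dendritic cells, a main source of type I interferon, were called in 0 of 3 tested in SC on day 2 (1 lower at an unadjusted p under 0.05), and of the T and NK cell markers 1 of 6 was called, Gzma at 1.90.

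Receptors and their signalling proteins rose in 7 of 11 tested in SC on day 2, where 10.9% of all genes tested rose. Ifnar1 measured 8.85, 7.84 and 8.80 in SC on day 2, against 6.61, 6.93 and 7.10 in SC on day 0, a difference of 1.62 ± 0.25 (adjusted p = 4.10e-05). Ifngr2, a chain of the interferon-gamma receptor, measured 9.66, 8.36 and 9.34 in SC on day 2, against 6.46, 6.72 and 7.30 in SC on day 0, a difference of 2.29 ± 0.32 (adjusted p = 1.27e-05). Ifngr2 was also the receptor gene called in EC, by 1.34 ± 0.32 on day 2, 1.48 ± 0.32 on day 4 and 1.22 ± 0.32 on day 8. Irf5 and Irf8, factors that macrophages express strongly, rose by 2.50 and 2.04 in SC on day 2. On day 0, 4 of 11 were lower in SC than in EC, where 9.43% of all genes tested were lower. Il10rb differed by -2.62 ± 0.43 and Ifnar1 by -1.13 ± 0.25.

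Of other genes of nucleic acid sensing, which include adaptors and kinases beside sensors, 12 of 17 rose in SC on day 2 and none fell, where 10.9% of all genes tested rose. Ifi204 rose by 6.49 and Tlr7, the endosomal RNA receptor, by 4.04. Of 42 other interferon-stimulated genes tested, 28 rose and none fell, led by Slfn2 (5.62), Ifi205 (5.25) and Slfn1 (5.15). On the EC arrays of day 0, Ifi205 and Slfn1 lay below every array median, at 2.70 and 3.89 or less. The SC day 0 levels of Slfn2, Ifi205 and Slfn1, from which these differences start, are not given here. How far genes of these lists passed the filter through the SC day 2 arrays was not examined. The rise of a gene that passed through those arrays alone would be fixed. Of 8 negative regulators 3 rose, Irf2, Ptpn2 and Ptpn6, the last of them, a phosphatase of leukocytes, by 3.31. Slfn1 measured 7.59, 4.10 and 4.22 in EC on day 2. Replicate 1 was also the highest of the 3 in macrophage markers, while 33 of 36 members, a share not counted over all genes, lay below both other arrays there. Macrophage markers rose on the same SC day 2 arrays as these lists and the receptor list, and their part was not tested.

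Genes induced mainly by interferon-gamma were counted as a list of their own. In SC, 13 of 22 rose and 1 fell on day 2, 8 rose and 1 fell on day 4, and 5 rose on day 8 (Cxcl9, Gbp9, Iigp1, Irgm1 and Psmb9). Of all genes tested, 10.9%, 6.53% and 4.38% rose on these days. The gene that fell on days 2 and 4 was Serping1, an inhibitor of complement, at -2.27 and -2.05. Cxcl9, a chemokine that draws T cells, measured 6.14, 7.00 and 6.49 on day 2, 7.66, 8.73 and 8.12 on day 4 and 6.21, 7.66 and 7.55 on day 8 in SC, against 4.20, 4.29 and 4.53 on day 0. It was higher on day 4 than on day 2 by 1.62 ± 0.46 (adjusted p = 0.0212), where no member rose. On day 0, 19 of 22 were lower in SC than in EC, where 9.43% of all genes tested were lower. Gbp9 stood at -5.16 and Cxcl9 at -5.06, and Serping1 was higher in SC. Without replicate 3 of EC, 17 of 22 were lower, where 9.12% of all genes were. Cxcl10, a related chemokine listed with the other interferon-stimulated genes, was called in EC on each day with all 3 day 0 arrays. It measured 6.44, 6.43 and 6.53 on day 2, 8.10, 8.57 and 8.63 on day 4 and 7.02, 7.26 and 7.50 on day 8 in EC, against 4.25, 4.86 and 5.62 on day 0. The differences were 1.56 ± 0.34 (adjusted p = 0.00605), 3.52 ± 0.34 (adjusted p = 1.79e-06) and 2.35 ± 0.34 (adjusted p = 0.000407).

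Over the 24 arrays, the genes outside the members whose level followed the mean of the members most closely were Rnf213 (Pearson r = 0.975), Ifi47 (0.967), Psmb8 (0.963), Trim30a (0.956) and Tap1 (0.943). The arrays share cell type and day, so these coefficients describe likeness of pattern and no p is given. Samhd1, Ddx58, Ddx60, Lgals9 and Sp100 completed the 10 most alike, at 0.943 to 0.931, and all 10 belonged to the interferon lists. Several members lie side by side in the genome by the RefSeq annotation, with no protein-coding gene between Rsad2 and Cmpk2, Oasl2 and Oasl1, Oas2 and Oas3, Ifit2 and Ifit3, or among Parp14, Dtx3l and Parp9. Neighbours did not always share a call: in SC on day 2 Dtx3l was called and Parp9 was not, and on days 4 and 8 Rsad2 was called and Cmpk2 was not. Those differences between neighbours were not tested.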

How the data were processed

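Arrays of the MoGene-2_0-st type were hybridised with biotin-labelled cDNA amplified from 750 pg of total RNA by the Ovation Pico method, per the labels. The deposited values are log2 RMA intensities, per the submitters' processing notes, and their range (1.29 to 12.9) fits log2. Software versions, build and probe annotation were not given in the sources used here. The 24479 probe sets were named through the platform annotation, and the highest mean was used where a symbol had several. Genes above their array's median on at least 3 arrays were tested with limma 3.58.1 in R 4.3.3, with 1 mean a group over all 24 arrays, 16 residual degrees of freedom and Benjamini-Hochberg adjustment over all genes of a comparison. The procedure was tested on simulated data with known changes. A fold is given only where the lower group mean was at least 1 above the array medians.

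The members, the pathway lists and the marker lists were chosen with earlier results of these data known, so their counts are descriptions and not independent evidence. For each comparison at most 8 called members, largest first, were to be given array by array, and of other genes only those of the lists, at most 4 called genes a list, any ligand or receptor and the 10 most alike in pattern; Gzma, Cd68, Ptprc, Serping1 and Ido1 were chosen after their values were seen. Replicates were labelled biological but may not come from separate mice, in which case p-values measure only the spread between these samples. The number of arrays limits the precision. Alternatives were each array left out, another centring, repeated quantile normalization, a stricter filter and none, array weights, eBayes with trend and robust moderation, the mean of a symbol's probe sets, no minimum difference, a fit on the compared groups only, and the replicate number as a block.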

Additional observations from a re-analysis of the deposited data

Results flagged for a closer look

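By limma's test of the difference itself, the change from day 0 differed between the arrays titled satellite and endothelial cells. It did so in 23 members on day 2, 2 on day 4 and 1 on day 8. All had the more positive change in SC. The values are the SC change minus the EC change on the log2 scale. On day 2, the genes of nucleic acid sensing gave 3.95 for Zbp1, 2.14 for Trim25 and 1.89 for Eif2ak2. The transcription factors gave 4.20 for Irf7, 2.10 for Stat2 and 1.35 for Irf9. Isg15 and its protease Usp18 gave 2.72 and 2.92. The OAS family gave 3.00 for Oas2, 2.95 for Oas3, 2.24 for Oasl1 and 2.79 for Oasl2, and the GTPases 3.11 for Mx1 and 3.26 for Gbp3. The values of Mx1 and Oas3 were fixed or nearly fixed by the filter, and without both genes 21 of 34 were called on day 2. Parp14 gave 2.89, Dtx3l 2.48 and Bst2 2.50. Among the other effectors the values were 4.29 for Rsad2, 3.19 for Rtp4, 2.32 for Cmpk2, 2.22 for Samd9l, 2.07 for Xaf1 and 1.66 for Ifi35. On day 4 the values were 2.45 for Rsad2 and 1.32 for Trim25, and on day 8 1.35 for Trim25. Groups of 3 arrays allowed no test for a single outlying array. Macrophage markers differed between the same groups, and replicate 3 of EC on day 0 entered each of these values, as given in the results; the part of the markers was not tested.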

How the results depend on the processing

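No member's direction was reversed where it was called, in any comparison under any alternative run, which include every array left out in turn. The count of called members stayed within 1.5 times its value for SC on day 2 and day 4 against day 0 and for SC against EC on day 0 under every alternative run, over ranges of 26 to 31, 6 to 13 and 22 to 30. Counts that moved by more are given with the value reported first; the cause was not tested. With a fit on the compared groups alone, the count went to 11 from 21 for SC day 4 against day 2, to 1 from 0 for SC day 8 against day 4, to 1 from 0 for EC day 4 against day 0, and to 0 from 2 and 0 from 1 for the difference in response on days 4 and 8. With array weights it was 1 for EC on day 2, 3 for EC on day 4 and 2 for the response on day 8. Centring on the 75th percentile and repeated quantile normalization each gave 0 for the response on day 8. A filter of at least 12 arrays, which drops Mx1 and Oas3, gave 1 for SC against EC on day 2.

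Leaving out 1 array at a time gave 3 to 9 for SC on day 8 against day 0, 12 to 24 for SC day 4 against day 2, 0 to 1 for SC day 8 against day 4, 0 to 2, 0 to 5 and 0 to 1 for EC on days 2, 4 and 8, 12 to 28 and 9 to 24 for SC against EC on days 4 and 8, and 19 to 28, 1 to 3 and 0 to 2 for the response on days 2, 4 and 8. Without replicate 3 of EC on day 0, SC day 8 against day 4 gave 1 and the response on day 4 gave 1; without replicate 2 of SC on day 0 the response on day 4 also gave 1. Without replicate 2 of SC on day 2, EC on day 4 gave 1. The single gene of the response on day 8, Trim25, was lost without replicate 2 or 3 of SC on day 0, replicate 2 or 3 of SC on day 8, replicate 3 of EC on day 0 or replicate 2 or 3 of EC on day 8. That count was 2 without replicate 1 of SC on day 8 or replicate 2 of EC on day 0.

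The sources used here do not say whether same-numbered SC and EC arrays came from the same muscles, and the arrays were treated as unpaired: deviations of same-numbered arrays correlated at -0.06 to 0.20 over all genes, above 0.1 in 4 of 12 pairs. With the replicate number as a block, the response counts were 23, 1 and 0 on days 2, 4 and 8, the SC counts against day 0 were 30, 10 and 7 and the EC counts 0 on each day, and no other count moved by over 1.5 times. Signal near the array median limits Mx1, Oas3 and the uninjured SC level of other members. Among them are Irf7, Isg15, Rsad2, Zbp1, Dhx58, Eif2ak2, Oas1a, Oas2, Oasl1 and Mx2. No fold is given for Mx1, Oas3 or the SC differences of those genes from day 0.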

Other observations

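The EC day 0 array with the raised members also held other genes of the interferon lists higher, chosen after their values were seen. Genes induced mainly by interferon-gamma averaged 8.94 on replicate 3 and 7.37 and 7.48 on the other day 0 arrays. Ido1, which degrades tryptophan and is a classical interferon-gamma target, measured 7.62 on replicate 3 and 4.21 and 4.52 on the others, against 4.90, 5.17 and 5.90 in EC on day 4. Cxcl10 measured 5.62 on replicate 3 and 4.25 and 4.86 on the others, against 8.10, 8.57 and 8.63 in EC on day 4. Interferon ligands averaged 4.17 on replicate 3 and 4.11 and 3.97 on the others. Among them Ifna4 measured 6.69 on replicate 3 and 5.48 and 5.83 on the others, and Ifna5 6.30 on replicate 3 and 5.40 and 5.46 on the others.

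In SC on day 8, replicate 2 had the highest mean over the members (6.46, against 5.94 and 6.19), the lowest macrophage mean (5.52, against 6.79 and 6.78) and the highest endothelial mean (8.22, against 7.07 and 7.90). On day 4, replicate 1 had the highest mean over the members (6.73, against 6.33 and 6.21) and the highest macrophage and endothelial means. Of the 36 members, 14 had their highest group mean in SC on day 2, 11 in EC on day 4, 9 in EC on day 0 and 2 in EC on day 2.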
